A study of Mus musculus with 12 samples.

Results

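Commd1 knockout macrophages and wildtype macrophages were compared after 3 h of lipopolysaccharide (LPS), a molecule of the outer bacterial membrane that activates the receptor TLR4. The comparison held the 4 samples of 12 that the labels give as 3 h LPS, 2 from Commd1 knockout mice and 2 from wildtype mice, and each sample was run on an array of its own. Bone marrow of each mouse had grown for 10 days in the myeloid growth factor GM-CSF (20 ng/ml) before LPS was given at 10 ng/mL. The culture of each of the 4 mice was also divided into an untreated sample and a sample kept 24 h in LPS, and these are used here only to show whether a difference at 3 h was also there at the other times. The labels give the genotype as Commd1 knockout but not the cells in which the gene was deleted, the strain, the sex or the age, and they call the cells bone marrow derived macrophages.

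COMMD1 belongs to the CCC complex, a set of proteins that returns membrane proteins from endosomes to the cell surface. It is also known for promoting the breakdown of the NF-kB subunit RelA and for its part in copper export. In macrophages, TLR4 signals through MYD88 to NF-kB and MAP kinases and through another adaptor, TICAM1, to interferon beta, so that inflammatory genes are induced first and interferon-stimulated genes follow. Macrophages display peptides on MHC class II molecules, whose alpha and beta chains are assembled with the invariant chain CD74 and loaded with peptide by the DM molecule.

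On the 3 h arrays 64.1% and 66.4% of probes were well above background in knockout and 69.9% and 69.1% in wildtype samples, and levels correlated across genes at r = 0.994 between the knockout replicates and 0.997 between the wildtype replicates, where genes are not independent replicates. The slope of signal on spike-in amount was 0.798 and 0.799 in knockout and 0.743 and 0.743 in wildtype arrays. All 4 arrays lay on 1 slide with knockout and wildtype at fixed positions, so the effect of position cannot be told apart from that of genotype. The untreated arrays and the 24 h arrays lay on 1 further slide each. Where levels are set side by side across times, time and slide cannot be told apart. Levels are log2 processed signals relative to the array's 75th percentile, and differences are knockout minus wildtype on that log2 scale, with the standard error (SE, n = 2 per group) from a limma fit that shares 1 spread over all 12 arrays. Higher, lower, rose and fell are written only of genes past an adjusted p of 0.05 over the 22974 genes tested.

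Commd1 itself came first. Its probe (mm9 chromosome 11, 22856412 to 22856471) read -0.48 and 0.07 in the knockout samples, against 2.73 and 2.70 in the wildtype samples. The groups lay far apart, and the difference of -2.92 ± 0.23 (adjusted p = 0.0229) was 7.58-fold. Residual signal stayed well above background on both knockout arrays, and whether the probe lies inside the deleted sequence was not tested. Of the 117 other genes within 10 Mb of it on chromosome 11, 0 passed in limma, and 28 of them, or 23.9%, had an unadjusted p below 0.05, against 24.3% of all genes tested.

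Of the other 9 COMMD family genes, which share the COMM domain through which the proteins pair, 0 passed in limma, and of the 10 genes with Commd1 4 had an unadjusted p below 0.05. Commd6 stood at -0.37 ± 0.11 (adjusted p = 0.0993), with 0.89 and 1.04 in knockout and 1.33 and 1.33 in wildtype samples. The list as a whole had 9 of 10 differences below 0 and a median of -0.16. The CCC complex, retriever, retromer and the WASH complex act together on endosomes. Among 22 of their genes 0 passed in limma and 5 had an unadjusted p below 0.05 (median -0.04). The share below 0.05 over all genes tested was 24.3%. Ccdc22, a core CCC subunit, stood at 2.30 and 2.5 in knockout against 2.82 and 2.89 in wildtype samples (-0.45 ± 0.11, adjusted p = 0.0738).

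Over all genes tested, 386 differed between knockout and wildtype after 3 h, which is 1.68%. They were 245 higher (1.07%) and 141 lower (0.614%) in knockout, so that 63.5% of the calls were higher. With arrays scaled on the probes detected on every array 561 genes passed, 252 higher and 309 lower. Of the 386, 64 were at least 2-fold higher and 44 at least 2-fold lower, and the median absolute size of a called difference was 0.79. The signed differences of all genes had a median of 0.03. Of the called genes 357 were above background on all 4 arrays and 14 below it on all 4. The lowest adjusted p was 0.0229, and at an unadjusted p below 0.05 there were 5590 genes, or 24.3% of those tested. The knockout and wildtype samples did not overlap in 59.5% of the 22902 genes with a value on all 4 arrays.

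Mouse 1 of the knockout group lay farther from wildtype than mouse 2 in 326 of the 386 called genes and in 69.0% of all genes. Without that sample 22 genes passed, without the other knockout sample 2926, and without 1 or the other wildtype sample 26 and 51. Most of the genes that passed without knockout sample 1 or without a wildtype sample were not among the 386. With wildtype sample 1 or 2 left out, most of the genes that passed were lower in knockout. A limma fit to the 4 arrays alone called 0 genes, with 4347 at an unadjusted p below 0.05.

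**Figure D1:**
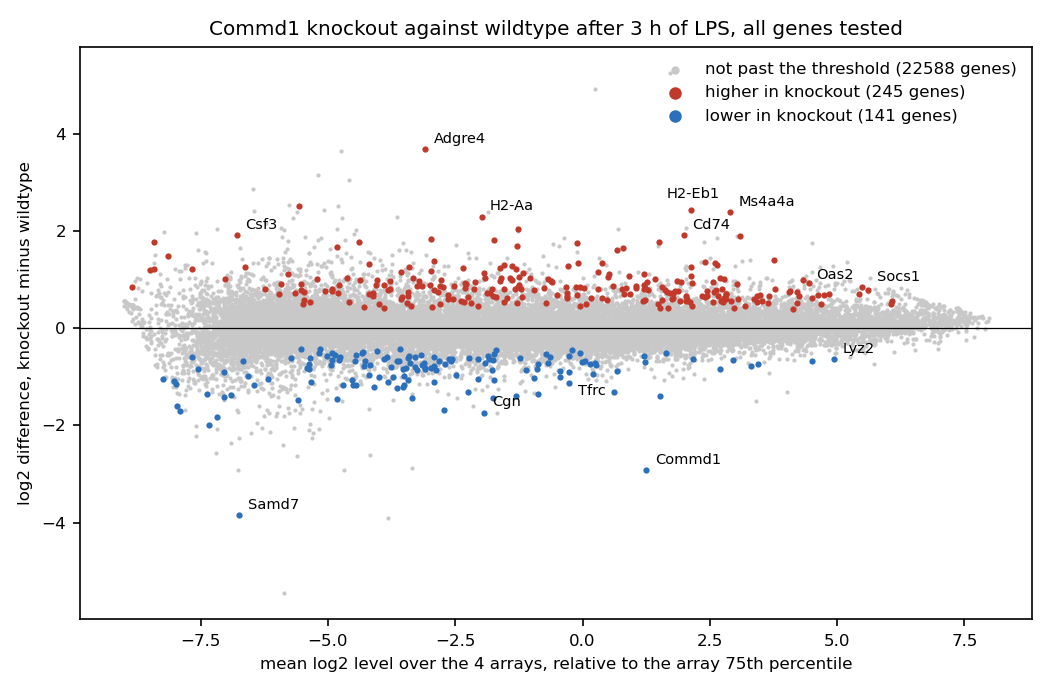
Log2 difference between Commd1 knockout and wildtype samples after 3 h of LPS (vertical axis, knockout minus wildtype) against the mean log2 level over the 4 arrays (horizontal axis, relative to the array's 75th percentile), with 1 point per gene tested. The 245 genes higher in knockout (red) and the 141 lower (blue) lie at all levels, with Commd1 at -2.92 and Adgre4 at 3.68.

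The MHC class II chain genes H2-Aa and H2-Eb1 and the invariant chain gene Cd74 were several-fold higher in knockout. Of 21 MHC class II and costimulation genes 7 were higher and 0 lower, with a median difference of 0.43 (0.03 over all genes). Among all genes tested 1.07% were higher and 0.614% lower. The beta chain gene H2-Eb1 read 3.84 and 2.86 in knockout against 1.11 and 0.74 in wildtype samples, a difference of 2.43 ± 0.40 (adjusted p = 0.0423). The alpha chain gene H2-Aa read -0.37 and -1.30 in knockout against -3.05 and -3.21 in wildtype (2.30 ± 0.38, adjusted p = 0.0423). Cd74, the invariant chain, read 3.39 and 2.51 in knockout against 1.01 and 1.07 in wildtype (1.91 ± 0.30, adjusted p = 0.0423). In each of these the lower knockout sample was still above both wildtype samples. Knockout and wildtype did not overlap in 59.5% of all genes with a value on every 3 h array. H2-Ab1, the partner chain of H2-Aa, ran alike at 3.58 and 2.53 in knockout and 1.04 and 0.95 in wildtype, but its difference of 2.06 ± 0.41 did not pass (adjusted p = 0.0522).

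The peptide loading genes differed less. H2-DMa, a chain of the DM molecule, was higher by 0.85 ± 0.13 (adjusted p = 0.0423), with 0.26 and -0.06 in knockout and -0.72 and -0.79 in wildtype samples. H2-Oa and H2-Ob, whose product restrains DM, were higher by 0.80 ± 0.12 and 0.43 ± 0.08 (adjusted p = 0.0423 and 0.0448). H2-DMb1 did not pass at 0.21 ± 0.11 (adjusted p = 0.269). Ciita, the transactivator that switches on class II promoters, read -1.47 and -1.31 in knockout and -1.81 and -1.84 in wildtype (0.43 ± 0.35, adjusted p = 0.483). Rfxap, a subunit of the RFX factor that binds the same promoters, was lower in knockout, at -5.44 and -5.22 against -4.53 and -4.60 in wildtype (-0.77 ± 0.12, adjusted p = 0.0423); it was chosen after its values were seen.

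Of the costimulatory genes, Cd86, a ligand of the T cell costimulatory receptor CD28, was higher by 1.08 ± 0.20 (adjusted p = 0.0473), with 1.73 and 1.18 in knockout and 0.31 and 0.45 in wildtype samples. Its relative Cd80 stood at 0.04 ± 0.11 and Cd83 at -0.06 ± 0.10, and neither passed (adjusted p = 0.839 and 0.772). In limma 0 of the 21 passed without knockout sample 1, without wildtype sample 1 or without wildtype sample 2, with 8, 8 and 10 at an unadjusted p below 0.05 and medians of 0.41, 0.43 and 0.42; without knockout sample 2, 11 passed. Of the 21 genes, 10 were higher in untreated knockout cells, where 3.73% of all genes tested were. After 24 h of LPS 0 were higher in limma, with 13 at an unadjusted p below 0.05, where 0.718% of all genes were higher.

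At the other times the same mice gave the following class II values. In untreated cells the difference was 2.60 ± 0.40 for H2-Eb1, 2.34 ± 0.38 for H2-Aa and 2.27 ± 0.30 for Cd74, all past the threshold (adjusted p = 0.0147, 0.0167 and 0.0095). After 24 h the differences were 1.30, 1.23 and 0.91 and did not pass (adjusted p = 0.12, 0.12 and 0.138). The change of the difference did not pass for H2-Eb1, H2-Aa or Cd74, with adjusted p of 0.944, 0.988 and 0.811 from untreated cells to 3 h and 0.384, 0.384 and 0.313 from 3 h to 24 h.

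The promoters of H2-Aa and H2-Eb1 are shown as those of the leading class II genes, and those of Il19, Socs1 and Myd88 as called genes whose promoter holds the letters of the interferon-stimulated response element (ISRE). Sequences are from RefSeq (GRCm38.p6), in the direction of the gene, and end at the base before its start. H2-Aa lies at chr17:34287824-34288073 (minus strand), H2-Eb1 at chr17:34305617-34305866 (plus strand), Il19 at chr1:130940116-130940365 (minus strand), Socs1 at chr16:10785537-10785786 (minus strand) and Myd88 at chr9:119340019-119340268 (minus strand). Socs1 and Myd88 were chosen for display after their values were seen. Capitals mark the motif TGACGTCA (CRE) at -74 and CTGATTGG (Y box) at -51 in H2-Aa, CTGATTGG at -62 in H2-Eb1, and the ISRE in the others, at -107 in Il19, at -40 in Myd88, and at -83 and -77 in Socs1, where the matches overlap. The inverted CCAAT of the Y box is a known element of class II promoters.
H2-Aa: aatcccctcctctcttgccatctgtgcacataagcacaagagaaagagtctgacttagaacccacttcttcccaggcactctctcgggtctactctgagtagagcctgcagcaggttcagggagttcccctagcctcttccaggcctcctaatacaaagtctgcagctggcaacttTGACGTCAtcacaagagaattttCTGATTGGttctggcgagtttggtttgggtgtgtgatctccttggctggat
H2-Eb1: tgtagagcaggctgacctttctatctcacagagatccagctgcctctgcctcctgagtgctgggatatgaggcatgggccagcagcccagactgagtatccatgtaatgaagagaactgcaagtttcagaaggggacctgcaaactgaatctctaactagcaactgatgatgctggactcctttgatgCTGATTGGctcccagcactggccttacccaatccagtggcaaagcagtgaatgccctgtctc
Il19: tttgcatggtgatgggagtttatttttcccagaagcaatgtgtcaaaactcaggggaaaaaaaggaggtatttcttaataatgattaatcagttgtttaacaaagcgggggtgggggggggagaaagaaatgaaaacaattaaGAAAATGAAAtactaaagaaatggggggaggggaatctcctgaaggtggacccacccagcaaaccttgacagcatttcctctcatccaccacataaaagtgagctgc
Socs1: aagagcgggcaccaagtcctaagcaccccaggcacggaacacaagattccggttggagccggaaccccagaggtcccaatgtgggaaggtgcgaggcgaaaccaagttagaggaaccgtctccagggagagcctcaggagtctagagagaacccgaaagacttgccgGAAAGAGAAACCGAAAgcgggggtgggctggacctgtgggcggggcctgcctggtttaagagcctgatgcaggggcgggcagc
Myd88: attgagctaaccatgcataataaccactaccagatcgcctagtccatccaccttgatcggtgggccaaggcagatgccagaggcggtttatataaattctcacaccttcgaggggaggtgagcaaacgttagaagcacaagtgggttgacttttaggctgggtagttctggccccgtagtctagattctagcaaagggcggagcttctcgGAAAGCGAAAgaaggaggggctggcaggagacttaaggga

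Promoters were at hand for 136 of the 245 genes higher in knockout, for 102 of the 141 lower and for 13275 of the genes tested. Searched on both strands from 250 bases before to 50 after the start, the ISRE letters occurred in 18 promoters of higher genes (13.2%), in 6 of lower genes (5.88%) and in 522 of the genes tested (3.93%). The NF-kB consensus occurred in 71.3%, 59.8% and 66.3% of these sets. The AP-1 letters TGANTCA were found in 10.3%, 8.82% and 7.32%, the CRE letters in 2.94%, 4.90% and 3.02%, and the Y box letters, added after the values were seen, in 2.94%, 7.84% and 6.09%. A match describes letters only, and binding was not tested.

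The leading genes in each direction are the 15 with the largest called difference among those named by RefSeq and above background on all 4 arrays. Beyond class II, the upward ones included Adgre4, Ms4a4a and the Tmem176 pair. Adgre4, an adhesion receptor of the EGF-TM7 family on myeloid cells, read -0.35 and -2.16 in knockout against -4.61 and -5.25 in wildtype samples (3.68 ± 0.66, adjusted p = 0.0471). Ms4a4a, a membrane protein of macrophages, read 4.57 and 3.60 in knockout against 1.84 and 1.56 in wildtype (2.38 ± 0.39, adjusted p = 0.0423). Tmem176a and Tmem176b, neighbouring genes of intracellular ion channels found in antigen-presenting cells, were higher by 2.04 ± 0.35 and 1.89 ± 0.30 (adjusted p = 0.0448 and 0.0423). For all 4 genes the groups did not overlap, as in 59.5% of the genes with a value on all 4 arrays. All 4 genes were also higher in untreated knockout cells, by 4.03, 2.29, 2.94 and 2.41.

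Selp, the adhesion molecule P-selectin, was called at 3 h alone. It read -0.43 and -1.25 in knockout against -2.66 and -2.65 in wildtype samples (1.81 ± 0.23, adjusted p = 0.0384). In untreated cells its difference was 0.53 ± 0.23 and after 24 h 0.09 ± 0.23, and neither passed (adjusted p = 0.202 and 0.858). Adora3, an adenosine receptor, was also called at 3 h alone, with 1.25 and 0.28 in knockout against -0.82 and -1.16 in wildtype at 3 h (1.76 ± 0.30, adjusted p = 0.0448) and differences of 0.66 and 0.36 in untreated cells and at 24 h that did not pass. The change from untreated to 3 h did not pass for Selp or Adora3 (adjusted p = 0.172 and 0.344).

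The other leading genes higher in knockout were Gpr171, a G protein-coupled receptor (1.83 ± 0.29), Plxdc2, a membrane protein (1.78 ± 0.31), Matn1, a matrix protein (1.67 ± 0.26), the uncharacterised I830077J02Rik (1.69 ± 0.26) and, described below, Cp and Steap4. The adjusted p of Gpr171, I830077J02Rik and Matn1 was 0.0423 each and that of Plxdc2 0.0448. Ccr2, the receptor that brings monocytes to inflamed tissue, read -2.63 and -2.92 in knockout against -4.15 and -3.92 in wildtype samples (1.26 ± 0.13, adjusted p = 0.0253). It was the one called member of 11 chemokine receptors, and it was higher at all 3 times, by 1.36 in untreated cells and 0.84 at 24 h.

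**Figure D2:**
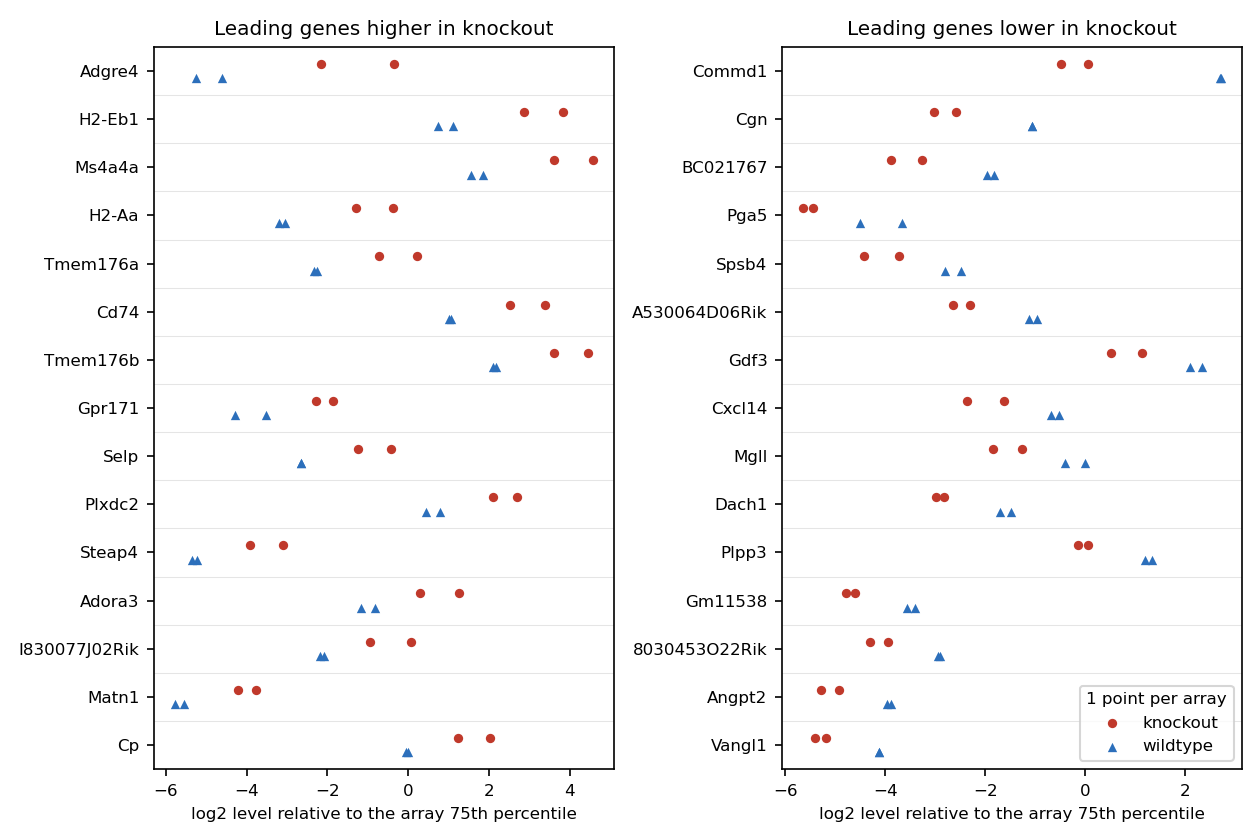
Log2 levels of the 15 leading genes in each direction, limited to called genes named by RefSeq and above background on all 4 arrays (1 row per gene, horizontal axis relative to the array's 75th percentile), with 2 knockout arrays (red circles, above) and 2 wildtype arrays (blue triangles, below) after 3 h of LPS. The groups are apart in every row, and they do not overlap in 59.5% of all genes with a value on all 4 arrays. Adgre4 lies at -0.35 and -2.16 in knockout and -4.61 and -5.25 in wildtype.

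Of 35 antiviral interferon-stimulated genes 3 passed, all higher, where 1.07% of all genes were higher. Of the 35, 25 had an unadjusted p below 0.05 in limma, where 24.3% of all genes tested did. All 35 differences were above 0, with a median of 0.45. Oas2, which makes the second messenger that activates RNase L, read 6.11 and 5.72 in knockout against 5.05 and 5.10 in wildtype samples (0.84 ± 0.13, adjusted p = 0.0423). Dhx58, a regulator of RNA sensing, was higher by 0.68 ± 0.12 and Eif2ak2, the kinase PKR, by 0.55 ± 0.09 (adjusted p = 0.0448 and 0.0423). The widely used markers Mx1, Ifit1 and Isg15 differed by 0.32, 0.18 and 0.26 and did not pass (adjusted p = 0.175, 0.547 and 0.347). In untreated cells 15 of the 35 were higher in knockout, where 3.73% of all genes tested were. After 24 h 0 of the 35 were higher in limma, with 13 at an unadjusted p below 0.05, where 0.718% of all genes were higher.

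Of 15 interferon-inducible GTPases, which attack the vacuoles of intracellular microbes, 2 were higher and 12 had an unadjusted p below 0.05 in limma. The shares over all genes tested were 1.07% and 24.3%. All 15 differences were above 0 (median 0.56). Gbp8 read -2.06 and -2.73 in knockout against -3.63 and -3.50 in wildtype samples (1.17 ± 0.19, adjusted p = 0.0423), and Gbp9 read 3.03 and 2.29 against 1.53 and 1.66 in wildtype (1.06 ± 0.21, adjusted p = 0.0495). Members of this family are near copies of each other, so single genes are uncertain. Gbp2b had the largest difference of the list, 5.25 ± 3.23, which did not pass (adjusted p = 0.352). It read 4.45 and 4.24 in knockout samples, against 3.72 and -5.52 in wildtype samples, and wildtype mouse 2 was low.

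Among 26 interferon receptors, IRFs, STATs and SOCS genes Socs1, a feedback inhibitor of cytokine signalling, was the one call, and all 26 differences were above 0 (median 0.32). Socs1 read 6.07 and 5.95 in knockout against 5.09 and 5.35 in wildtype samples (0.79 ± 0.10, adjusted p = 0.0402). Irf7, the factor that amplifies interferon production, read 3.08 and 2.83 in knockout against 2.09 and 2.11 in wildtype, and did not pass (0.85 ± 0.20, adjusted p = 0.0657). Ifnb1 itself, the interferon beta gene, differed by 0.36 ± 0.23 (adjusted p = 0.373). Nlrc5, the transactivator of MHC class I, was higher by 0.77 ± 0.14 (adjusted p = 0.0473) and was the one call of 18 class I and immunoproteasome genes (median 0.38).

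These interferon medians depended on how the arrays were scaled. When each array's signals were first brought to a common spike-in slope, the median was 0.10 for the antiviral genes, 0.35 for the GTPases, 0.05 for the IRF and STAT list and -0.0046 for the class I list, against 0.56 for the class II list, and the median of all genes moved to 0.13. Without knockout sample 1, 0 antiviral genes and 0 GTPases passed in limma, with 11 and 6 at an unadjusted p below 0.05 and medians of 0.29 and 0.44. Without wildtype sample 1 or 2 these lists also had 0 calls, with 14 and 19 antiviral genes and 9 and 10 GTPases at an unadjusted p below 0.05, and without knockout sample 2 there were 14 and 10 calls.

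The best known inflammatory cytokine genes induced by LPS did not pass at 3 h. Il1b read 7.0 and 6.74 in knockout against 6.72 and 6.69 in wildtype samples (0.17 ± 0.35, adjusted p = 0.813). Tnf read 5.65 and 5.56 in knockout against 5.45 and 5.56 in wildtype (0.10 ± 0.26, adjusted p = 0.851), and Il6 read 4.05 and 3.89 against 3.59 and 3.92 in wildtype (0.22 ± 0.20, adjusted p = 0.527). For each of these the nearest knockout and wildtype samples lay close together, and with equal spike-in slopes the differences were -0.33, -0.31 and -0.06. Il12b stood at -0.15 ± 0.33, the cyclooxygenase gene Ptgs2 at 0.13 ± 0.22 and Acod1, which makes itaconate, at 0.23 ± 0.12, and none passed (adjusted p = 0.824, 0.763 and 0.27). A p that misses the threshold does not show that levels are equal.

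Of 21 inflammatory cytokine genes 2 were higher and 0 lower (median 0.35, and 0.07 with equal spike-in slopes), where 1.07% of all genes tested were higher. Il19, of the interleukin-10 family, read 0.43 and 0.16 in knockout against -0.50 and -0.61 in wildtype samples (0.85 ± 0.14, adjusted p = 0.0423). Csf3, which encodes the neutrophil growth factor G-CSF, read -5.44 and -6.24 in knockout and was not well above background in wildtype, so that it was at least 2.30-fold higher (adjusted p = 0.0423). Csf2, the GM-CSF gene, went the other way at -5.90 and -4.13 in knockout and -3.45 and -3.27 in wildtype and did not pass (-1.65 ± 0.47, adjusted p = 0.0918). Nos2, the inducible nitric oxide synthase, was the one call of 22 antimicrobial effectors, with 3.87 and 3.91 in knockout against 3.30 and 3.46 in wildtype (0.51 ± 0.09, adjusted p = 0.0448).

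Chemokines gave 1 call among 5 neutrophil-attracting CXC genes, 0 among 4 interferon-induced CXC genes with Cxcl16, and 0 among 12 CC genes (medians 0.08, 0.39 and 0.08; 1, 1 and 2 at an unadjusted p below 0.05 in limma). With equal spike-in slopes these medians were -0.0062, -0.0039 and -0.37. Among all genes tested 24.3% had an unadjusted p below 0.05 in limma. The call was Ppbp, a platelet and myeloid chemokine, which was higher by 0.92 ± 0.16 (adjusted p = 0.0443), with -1.83 and -1.88 in knockout and -2.79 and -2.76 in wildtype samples. Cxcl1 and Cxcl2 differed by -0.22 ± 0.30 and 0.08 ± 0.23 and did not pass (adjusted p = 0.687 and 0.863). Cxcl14, a chemokine outside these lists, was lower in knockout at -2.37 and -1.63 against -0.52 and -0.69 in wildtype (-1.39 ± 0.27, adjusted p = 0.0497).

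Upstream of the cytokines, 2 of 31 toll-like receptor and TLR4 signalling genes were higher, and 16 had an unadjusted p below 0.05 in limma (median 0.17). The shares over all genes tested were 1.07% and 24.3%. Lbp, which hands LPS to its receptor complex, read -2.43 and -2.02 in knockout against -3.56 and -3.67 in wildtype samples (1.39 ± 0.19, adjusted p = 0.0402), and Myd88, the adaptor, read 4.98 and 4.64 against 4.21 and 4.17 in wildtype (0.62 ± 0.12, adjusted p = 0.0497). Tlr4 differed by 0.17 ± 0.12 (adjusted p = 0.401). Tlr5, the flagellin receptor, read -2.21 and -5.39 in knockout and -5.92 and -5.77 in wildtype, with 1 knockout sample high (2.05 ± 0.81, adjusted p = 0.173).

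Of the NF-kB genes 0 passed in limma, with 2 subunit genes at an unadjusted p below 0.05, where 24.3% of all genes tested were. The 5 subunit genes lay between 0.18 and 0.40 with a median of 0.27, and Rela, whose protein COMMD1 is known to act on, read 6.25 and 6.05 in knockout against 5.87 and 5.88 in wildtype samples (0.27 ± 0.11, adjusted p = 0.183; -0.16 with equal spike-in slopes). The 26 genes of IkB proteins and NF-kB feedback had a median of 0.22 and 0 calls in limma, with 12 at an unadjusted p below 0.05. Nfkbia, the main inhibitor, differed by 0.30 ± 0.11 and Tnfaip3, which encodes A20, by 0.24 ± 0.15 (adjusted p = 0.142 and 0.371). With spike-in slopes made equal the median of the feedback list was -0.01. In untreated cells 7 of these 26 were higher in knockout, where 3.73% of all genes tested were, against 1.07% at 3 h.

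Interleukin receptors gave 3 calls of 26, all higher, where 1.07% of all genes tested were higher (median 0.46, and 0.03 over all genes). Il1r1, the signalling receptor of interleukin-1, read -1.11 and -1.64 in knockout against -2.42 and -2.59 in wildtype samples (1.13 ± 0.21, adjusted p = 0.0482). Il12rb1, a subunit of the interleukin-12 and interleukin-23 receptors, was higher by 1.03 ± 0.13 and Il21r by 0.71 ± 0.13 (adjusted p = 0.0384 and 0.0471). Il4ra, of the interleukin-4 receptor, read 5.38 and 4.80 in knockout against 4.15 and 4.05 in wildtype and did not pass (0.99 ± 0.26, adjusted p = 0.0793).

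Other inducible genes passed singly. Dusp1, the phosphatase that shuts off MAP kinases, was the one call of 27 immediate early and phosphatase genes, with 3.68 and 3.63 in knockout against 3.13 and 2.99 in wildtype samples (0.59 ± 0.11, adjusted p = 0.0471). Dusp1 was lower in untreated knockout cells (-0.54 ± 0.11, adjusted p = 0.0273), but the change of its difference from untreated cells to 3 h did not pass. Gsdmd, the pore protein of pyroptosis, was higher by 0.55 ± 0.09 (adjusted p = 0.0423), the one call of 14 inflammasome genes. In the other lists 0 genes passed in limma. They held 7 Schlafen, 12 TNF ligand, 15 TNF receptor, 19 complement, 22 tissue protease, 17 prostaglandin and leukotriene and 6 cytokine mRNA decay genes. Of these, 1, 3, 5, 9, 9, 4 and 1 had an unadjusted p below 0.05 in limma, against 24.3% of all genes tested.

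**Figure D3:**
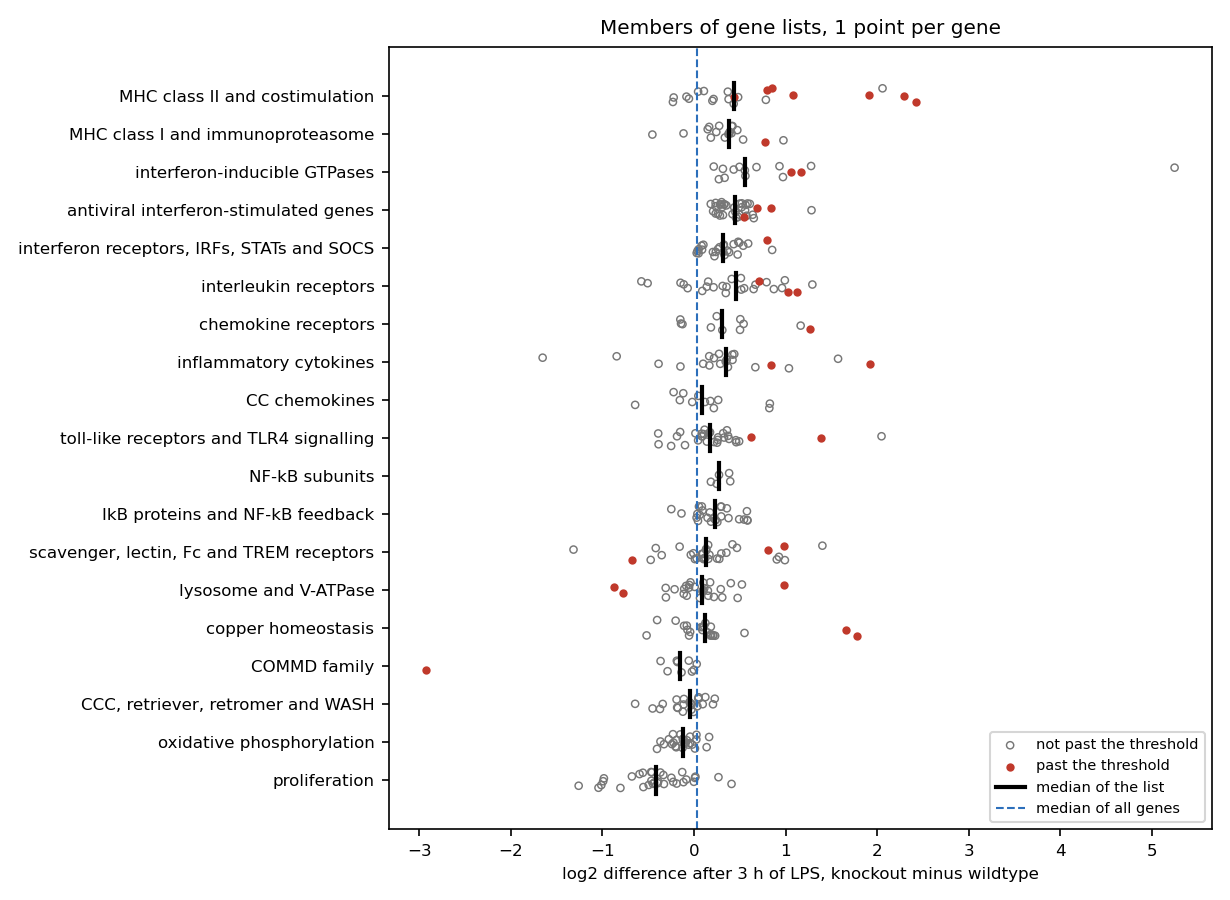
Log2 differences after 3 h of LPS (horizontal axis, knockout minus wildtype) of the members of selected gene lists, with 1 point per gene, red where past the threshold, and a bar at the list median. The antiviral and GTPase members all lie above 0 with medians of 0.45 and 0.56, the class II list holds 7 calls, and the proliferation list has a median of -0.42 with no call.

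Copper and iron genes bear on the known role of COMMD1. Of 24 copper genes 2 were higher and 0 lower (median 0.12, and -0.13 with equal spike-in slopes), where 1.07% of all genes tested were higher. Cp, the copper-carrying ferroxidase ceruloplasmin, read 2.01 and 1.23 in knockout against -0.07 and 0.00 in wildtype samples (1.66 ± 0.30, adjusted p = 0.0473). Steap4, a reductase of iron and copper, read -3.1 and -3.91 in knockout against -5.22 and -5.34 in wildtype (1.78 ± 0.27, adjusted p = 0.0423). The transporters Atp7a, Atp7b and Slc31a1 and the metallothionein gene Mt1 differed by 0.08, 0.11, 0.18 and 0.19 and did not pass (adjusted p = 0.676, 0.624, 0.368 and 0.597). Of 13 iron genes Cp was higher and Tfrc, the transferrin receptor, was lower at -1.10 and -0.54 in knockout against 0.22 and 0.39 in wildtype (-1.13 ± 0.21, adjusted p = 0.0473). Tfrc was lower in untreated knockout cells too, by -1.30 ± 0.21 (adjusted p = 0.0162).

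Lysosomal and surface genes moved both ways. Of 29 lysosome and V-ATPase genes Ctse, a protease of antigen processing, was higher (0.98 ± 0.16, adjusted p = 0.0423). Ctsk, the collagen-degrading cathepsin, was lower at 0.15 and 0.34 in knockout against 1.17 and 1.06 in wildtype samples (-0.87 ± 0.09, adjusted p = 0.0253), and Atp6v0d2, a proton pump subunit, was lower by -0.78 ± 0.12 (adjusted p = 0.0423). Both are also on the list of 10 osteoclast markers and were its only 2 calls. Among all genes tested 0.614% were lower. Of 33 scavenger, lectin, Fc and TREM receptors Treml2 (0.99 ± 0.18) and Axl, which takes up dying cells (0.81 ± 0.12), were higher, and Clec7a, the beta-glucan receptor Dectin-1, was lower (-0.68 ± 0.13, with adjusted p of 0.0478, 0.0402 and 0.0482). Pltp, the phospholipid transfer protein and an LXR target, read 1.90 and 1.08 in knockout against -0.10 and -0.14 in wildtype (1.61 ± 0.30, adjusted p = 0.0473), the one call of 20 LXR and lipid efflux genes, and was higher at all 3 times.

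After Commd1 the leading genes lower in knockout were Cgn, a tight junction protein, and BC021767, at -1.74 ± 0.17 and -1.69 ± 0.20 (adjusted p = 0.0253 and 0.0317). Cgn read -3.03 and -2.58 in knockout against -1.07 and -1.07 in wildtype samples, and it was lower at all 3 times. Plpp3, which breaks down lysophosphatidic acid, read 0.06 and -0.15 in knockout against 1.34 and 1.19 in wildtype (-1.31 ± 0.17, adjusted p = 0.0402). Dach1, a transcription factor, was lower by -1.32 ± 0.16 and Mgll, the lipase of the endocannabinoid 2-AG, by -1.36 ± 0.25 (adjusted p = 0.0337 and 0.0473). Gdf3, a ligand of the TGF-beta family, read 1.14 and 0.51 in knockout against 2.10 and 2.35 in wildtype (-1.40 ± 0.25, adjusted p = 0.0473).

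The remaining leading genes lower in knockout were Pga5, Spsb4, A530064D06Rik, Gm11538, 8030453O22Rik, Angpt2, which encodes the vessel ligand angiopoietin-2, and Vangl1, a planar polarity protein, between -1.46 and -1.17. Among genes not well above background in knockout, Samd7 was at least 3.1-fold lower, while Zfp248, Olfr1176, Xk and Gm5532 were at least 1.19, 1.14, 1.09 and 1.08-fold lower (adjusted p between 0.0402 and 0.0499). Lyz2, the macrophage lysozyme, was lower at 4.78 and 4.49 in knockout against 5.29 and 5.22 in wildtype samples (-0.63 ± 0.12, adjusted p = 0.0482). Its neighbour and near copy Lyz1 read 6.78 and 6.73 in knockout and 6.63 and 6.67 in wildtype and did not pass (0.10 ± 0.07, adjusted p = 0.412). With equal spike-in slopes Lyz1 was lower too, at -0.39 (adjusted p = 0.024).

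P4ha2, a collagen prolyl hydroxylase, was the one call of 30 hypoxia and glycolysis genes, lower by -0.95 ± 0.17 (adjusted p = 0.0473). In limma 0 genes passed among 26 oxidative phosphorylation, 24 NRF2 and oxidative stress, 21 cholesterol, 28 unfolded protein, 13 heat shock or 32 proliferation genes, with medians of -0.12, -0.08, -0.06, -0.00056, -0.12 and -0.42 and with 3, 6, 5, 7, 5 and 5 at an unadjusted p below 0.05. Among all genes tested 24.3% had an unadjusted p below 0.05 in limma. Of the proliferation genes, 28 of 32 differences were below 0. Mcm5, a subunit of the replication helicase, read 0.27 and 1.5 in knockout against 1.79 and 2.01 in wildtype samples and did not pass (-1.01 ± 0.47, adjusted p = 0.227). Knockout sample 1 was the low one, and the list median was -0.11 without it and -0.75 without knockout sample 2.

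Marker genes were read for the cells the culture could hold. The macrophage genes Csf1r, Adgre1 and Cd68 stood between 4.27 and 7.67 on all 4 arrays, and of 17 macrophage markers Maf was higher and Lyz2 lower (median 0.25, and -0.05 with equal spike-in slopes). Their summed level in log2 was 9.50 and 9.28 in knockout and 9.09 and 9.11 in wildtype samples. Of 14 dendritic cell markers 1 was higher, the kynurenine enzyme Kmo (1.23 ± 0.20, adjusted p = 0.0423), with a summed level of 7.08 and 6.88 in knockout and 6.62 and 6.64 in wildtype. Of their defining markers, Clec9a was below background on all 4 arrays. Flt3 read -5.31 and -5.35 in knockout and -5.53 and -5.50 in wildtype. Zbtb46 read 1.75 and 1.14 in knockout and 0.90 and 0.90 in wildtype. Of the 14 dendritic cell markers 10 had a difference above 0 and 4 below. The lowest was that of Itgax, which went the other way at -0.76 and did not pass. Both sums, which were not tested, lay above wildtype in each knockout sample and were largest in sample 1. H2-Eb1, H2-Aa and Cd74 also lay above wildtype in each knockout sample and were largest in sample 1. Summed levels of some other lists, such as the antiviral genes and the interleukin receptors, did the same. Knockout sample 1 lay farther from wildtype than sample 2 in 69.0% of all genes. The part of these markers in the class II result was not tested. In bulk samples more cells of a type and more RNA per cell cannot be told apart.

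Of 13 neutrophil markers 0 passed in limma and 3 had an unadjusted p below 0.05 (median -0.20), where 24.3% of all genes tested did. S100a8 read -1.37 and -2.16 in knockout against -0.24 and -0.72 in wildtype samples (-1.28 ± 0.32, adjusted p = 0.0733). Of the 9 B cell, 10 T and NK cell, 5 erythroid, 5 megakaryocyte, 9 mast cell, basophil and eosinophil and 10 stromal markers that entered, Ppbp was the one call. Their summed levels were 5.30 and 5.54, 3.97 and 3.79, -0.42 and -0.64, 6.41 and 6.37, 1.46 and 1.48, and 2.75 and 2.20 in knockout. In wildtype samples they were 5.79 and 5.74, 3.52 and 3.62, -0.80 and -0.78, 6.33 and 6.36, 1.24 and 1.19, and 2.14 and 2.24.

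Of the 386 calls at 3 h, 155 were also called in the same direction in untreated cells, which is 40.2% of the 3 h calls and 10.0% of the 1550 untreated calls (6.75% of genes tested). With 24 h the shared calls were 54, or 14.0% of the 3 h calls and 9.85% of the 548 calls at 24 h (2.39% of genes tested). At all 3 times 34 genes were called in one direction and 207 at 3 h alone. The same 4 mice gave all 3 times, so these comparisons share animals.

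A call at 1 time and not at another does not show that the difference changed, so the change itself was tested. Between untreated cells and 3 h it passed for 8 genes, 0.0348% of those tested, with 6 changes upwards (0.0261%) and 2 downwards (0.00871%); with mouse as a random block 21 genes passed and with mouse as a fixed block 1. The random block kept all 8 of these genes and the fixed block 0 of them, Cxcl10 and Cd200 included. In limma 0 passed without knockout sample 1 at 3 h and 0 without its untreated sample, with 2629 and 1967 at an unadjusted p below 0.05. Cxcl10, an interferon-induced chemokine, read 0.38 and 0.43 in knockout against -1.71 and -2.28 in wildtype untreated cells, and 7.69 and 7.61 in knockout against 7.37 and 7.47 in wildtype after 3 h. Its genotype difference was thus 2.40 ± 0.16 in untreated cells and 0.23 ± 0.16 at 3 h, a change of -2.17 ± 0.23 (adjusted p = 0.0318). Cd200, the ligand of an inhibitory receptor on myeloid cells, was lower in untreated knockout cells by -2.54 ± 0.16 and differed by -0.23 ± 0.16 at 3 h, a change of 2.31 ± 0.23 (adjusted p = 0.0318). At 3 h it read 2.91 and 2.61 in knockout and 3.1 and 2.87 in wildtype samples.

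Il1b did not pass this test. Its difference was 4.19 ± 0.35 in untreated cells (adjusted p = 0.00222) and 0.17 ± 0.35 at 3 h, a change of -4.02 ± 0.50 (adjusted p = 0.0529). Untreated levels were -0.17 and -1.39 in knockout and -4.80 and -5.14 in wildtype cells. Between 3 h and 24 h the difference changed in 1 gene (0.00435%), Syne2, a nuclear envelope protein, which lay at 0.27 ± 0.12 at 3 h and -1.64 ± 0.12 at 24 h; with mouse as a random block 14 genes passed and with mouse as a fixed block 0.

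**Figure D4:**
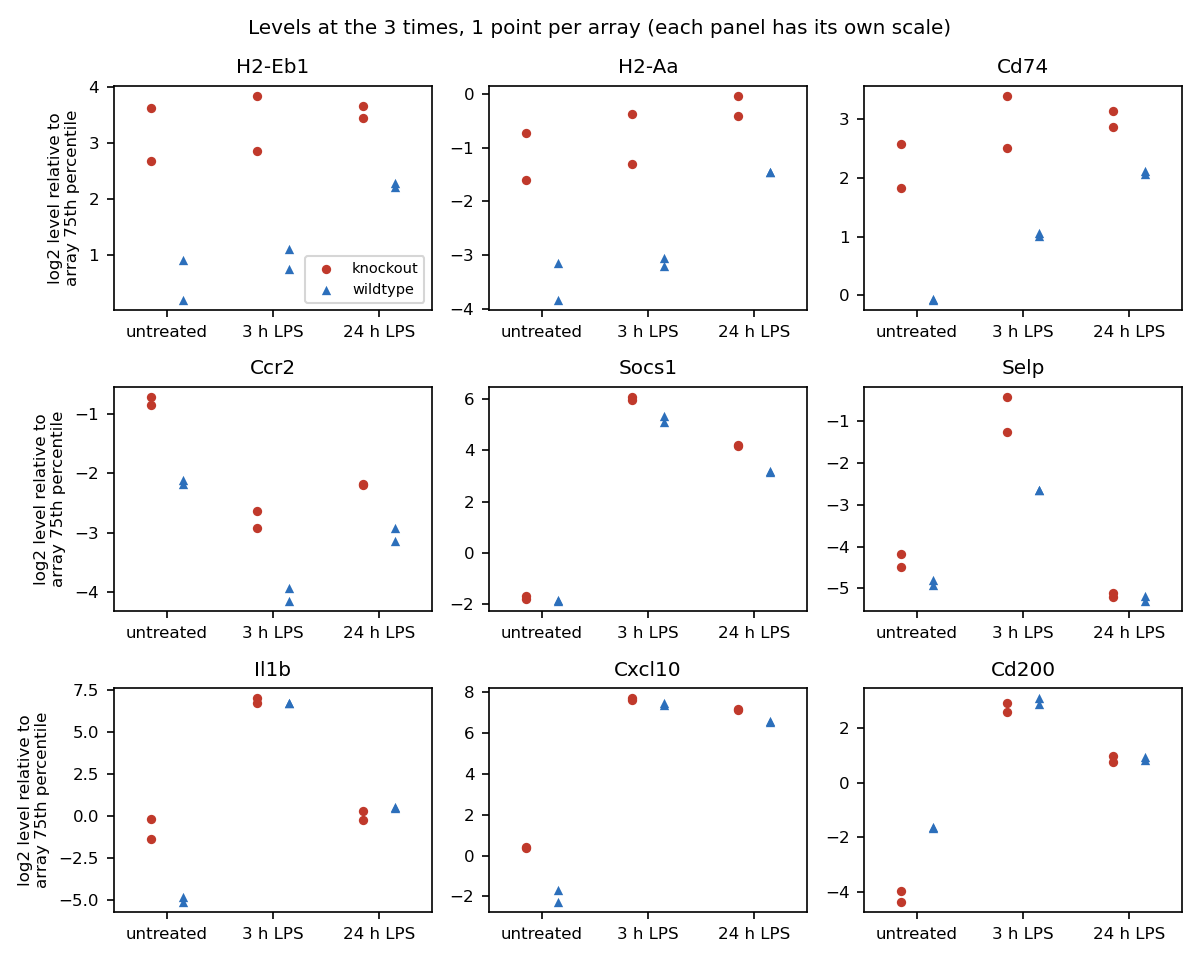
Log2 levels of 9 genes in untreated cells and after 3 h and 24 h of LPS (horizontal axis), relative to the array's 75th percentile (vertical axis, its own scale in each panel), with knockout arrays as red circles to the left and wildtype arrays as blue triangles to the right. The class II genes are apart by genotype before and after LPS, Selp is apart at 3 h (-0.43 and -1.25 in knockout, -2.66 and -2.65 in wildtype), and Il1b, Cxcl10 and Cd200 are apart in untreated cells and close together at 3 h.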

How the data were processed

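RNA was measured on 12 one-colour Agilent arrays, 2 mice per genotype and 3 times, and the 4 arrays after 3 h of LPS carry the comparison. The deposited scanner files hold, per the file headers, the processed signal of Agilent Feature Extraction 10.7.3.1, an intensity per spot from which the scanner software had subtracted background, with probe positions in mm9. The authors also deposited a table of log2 values, used as an alternative, whose scale and centring the labels do not give. Among probes well above background on an array, 99.4% to 99.9% of its values lay within 0.01 of the log2 signal minus 1 constant. Probes not well above background were left out of this check. The column medians ran between -4.50 and -4.30.

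Control spots and outlier spots were left out, spots of a probe were averaged, and log2 signals were set relative to each array's 75th percentile. Of 39429 probes, 28426 entered that both arrays of some group had well above background, for 22974 genes; the 4568 genes with several such probes are represented by the one with the highest mean level. Names were updated through RefSeq accession, symbol or synonym for 78.7% of probes. limma 3.58.1 (R 4.3.3) fitted 6 group means over all 12 arrays (6 residual degrees of freedom), with Benjamini-Hochberg adjustment at 0.05, two-sided. The step was tested on simulated data. Python 3.11.15 and pandas 2.3.3 made the counts and figures. A probe below background on every array of a group is given as at least a fold, from the lowest signal among probes well above background on each array. The number of arrays limits the precision, and the labels tie replicates to separate mice.

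Members and lists were chosen with earlier results of these data known. The named genes are Commd1, the 15 largest called differences each way among genes matched to RefSeq and well above background on all 4 arrays, up to 5 bounds each way, up to 5 called and 3 uncalled members of each list, the COMMD family, the largest changes with time, and set LPS genes. Named beyond this rule, after their values were seen, were H2-Oa, H2-Ob, H2-DMb1, Ciita, Cd80, Cd83, Rfxap, Mx1, Ifit1, Isg15, Tlr4, Nfkbia, Tnfaip3, Atp7a, Atp7b, Slc31a1, Mt1, Adgre1, Cd68, Clec9a, Flt3, Slamf8, Syne2 and Zbed5. Some called genes are not reported here. Knockout and wildtype came from different mice, so replicate numbers do not pair them. Between times the same mice were sampled: deviations of 1 mouse correlated between untreated cells and 3 h at 0.35 in knockout and 0.19 in wildtype, and between 3 h and 24 h at 0.12 in knockout and 0.15 in wildtype, across genes.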

Additional observations from a re-analysis of the deposited data

Results flagged for a closer look

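The genotype difference changed with LPS in a few genes when the change itself was tested in limma over all 12 arrays, by group means with no term for the mouse. With mouse as a fixed block 0 of these calls were kept in limma (3239 and 4133 genes at an unadjusted p below 0.05 for the change to 3 h and from 3 h to 24 h), and with mouse as a random block all were. From untreated cells to 3 h the difference rose in Sox7 by 2.87, in Ttll2 by 2.55, in Npas4 by 2.33, in Cd200 by 2.31 and in Slamf8 by 1.27 on the log2 scale, and it changed by -1.52 in Vgll4 and by -2.17 in Cxcl10 (adjusted p = 0.0318 each). Sox7 was below background on all 4 arrays at 3 h, and Vgll4 was below it in knockout at 3 h. The changes of Sox7 and Vgll4 are thus fitted values with no measured size. Ttll2 read -8.40 and -8.00 in untreated knockout cells, under the -7.01 and -7.00 of Vgll4 in knockout at 3 h. The size of the Ttll2 change is therefore uncertain too. Npas4, an activity-induced transcription factor, read -4.56 and -4.01 in knockout against -2.37 and -2.26 in wildtype untreated cells, and -4.36 and -4.43 in knockout against -4.75 and -4.76 in wildtype cells after 3 h. Slamf8, a surface receptor of macrophages, read -1.0 and -1.07 in knockout against -0.16 and -0.06 in wildtype untreated cells, and 1.97 and 1.76 in knockout against 1.55 and 1.48 in wildtype cells after 3 h. From 3 h to 24 h the difference changed in Syne2 by -1.92 (adjusted p = 0.0493).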

How the results depend on the processing

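The count of 386 genes at 3 h was 1732 after normexp background correction, 5306 with equal spike-in slopes, 809 in the deposited log2 table and 1468 over probes detected on all arrays, and in limma 0 without the filter on detection and 0 in a fit to the 4 arrays alone (6056 and 4347 at an unadjusted p below 0.05). Leaving out 1 array gave 22 to 2926. With replicate number as a block 1052 genes passed, but equal numbers are different mice (correlation of deviations 0.08); with mouse as a random block 437 passed. Quantile normalization, cyclic loess, the other percentile and the mean of probes gave 351, 396, 561 and 393. The all-gene median moved to 0.11 with normexp and 0.13 with spike-in slopes. Commd1 stayed at -2.92 without the filter and in the fit to the 4 arrays alone, with adjusted p of 0.0658 and 0.225; leaving out 1 array gave -3.20 to -2.65. Of the 68 other called genes that are named by the rule, 62 passed with normexp, 63 with spike-in slopes, 66 in the deposited table, 4 without knockout sample 1, 1 and 9 without wildtype sample 1 and 2, and in limma 0 without the filter and 0 in the fit to the 4 arrays alone, all in the same direction but for Vgll4, at 0.033 with normexp. Changes of the genotype difference from untreated to 3 h, 8 genes, numbered 106 with normexp, 18 with cyclic loess, 19 with spike-in slopes, 39 in the deposited table, 77 over probes detected on all arrays, 21 with mouse as a random block, 1 with mouse as a fixed block, 0 in limma without the filter (2896 at an unadjusted p below 0.05) and 0 in the groups compared alone (2861), and 0 to 371 with 1 array left out. From 3 h to 24 h the 1 gene became 10, 13, 3, 0 and 34 with normexp, quantile normalization, cyclic loess, spike-in slopes and the deposited table, 27 over probes detected on all arrays, 14 and 0 with mouse as a random and a fixed block, 0 without the filter, with the mean of probes and in the groups compared alone (3408, 3543 and 3134 at an unadjusted p below 0.05), and 0 to 216 with 1 array left out. Genes that had not passed turned sign, of which Lyz1 passed with spike-in slopes (adjusted p = 0.024): with spike-in slopes Cxcl2 -0.0062, Rela -0.16, Lyz1 -0.39, Csf1r -0.12, Ttll2 0.23, Cxcl10 -0.32, Il1b -0.33, Il6 -0.060, Tnf -0.31 and Acod1 -0.32; with quantile normalization Lyz1 -0.076, Sox7 -0.03, Il1b -0.0073 and Tnf -0.0079; and with normexp Ttll2 0.019. With 1 array left out, Cxcl2 lay between -0.15 and 0.31, Ptgs2 between -0.0060 and 0.26, and Ttll2 between -0.36 and 0.091. The cause was not tested.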

Other observations

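Single mice stood out in a few genes. Ifi44, an interferon-induced gene, read 3.93 and 1.42 in knockout against 1.38 and 1.40 in wildtype samples after 3 h, so that knockout mouse 1 was high. Zbed5 was higher in knockout, at -4.43 and -4.18 against -6.25 and -7.40 in wildtype samples (2.52 ± 0.48, adjusted p = 0.0482), and was above background on 1 of the 2 wildtype arrays. Its probe was chosen for mention after its values were seen.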
